A study of Mus musculus with 11 samples.

Results

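Immunoglobulin light chain variable (V) genes were read in 11 RNA-seq libraries of sorted mouse splenic B cells. All genes of the table whose symbol starts with Igkv or Iglv and whose GENCODE M21 biotype is IG_V_gene were taken, which gave 103 of 48795 genes, 100 of them kappa (Igkv) and 3 lambda (Iglv). A further 60 Igkv pseudogenes were left out. Light zone (LZ) germinal center (GC) B cells (B220+ CD138neg IgDneg CD38neg Fas+ CD86high CXCR4low) came from 4 Myc WT mice (mice 1 to 4) and 4 Myc V394D mice (mice 5 to 8). Memory B cells (MBCs; B220+ CD138neg IgDneg CD38+ CD273+) came from Myc WT mice 1, 3 and 4, so that each MBC library had an LZ library with the same mouse code. All mice were females of 8 to 12 weeks on a C57BL/6 background, taken at day 10 after immunization with sheep red blood cells (SRBCs), and each library is 1 animal. Myc V394D changes 1 residue of MYC at the endogenous locus and abrogates the binding of MYC to MIZ1 but not to MAX. The titles of all Myc V394D samples share a code prefix, those of Myc WT mice 1 to 3 share another and that of Myc WT mouse 4 has a prefix of its own. The labels do not say what the prefix stands for, and an effect of the genotype and one of whatever it marks cannot be told apart.

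A light chain is assembled in developing B cells when the recombinase joins a V gene to a joining gene upstream of a constant gene, at the kappa locus first and at the lambda locus mostly where kappa joining has failed. A mature B cell as a rule expresses a single light chain, and its daughters inherit it. V gene usage in a pool of sorted cells therefore follows which clones are in the pool and how much light chain RNA each cell holds, and in bulk RNA fewer cells with a V gene and less RNA per cell cannot be told apart. GC B cells mutate their V genes and are selected for binding to antigen in the LZ, and MBCs are long-lived cells that leave this reaction or arise before it.

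The 3′ end of a germline V gene encodes the start of the complementarity-determining region CDR3, which differs between members, after a conserved stretch that ends in a cysteine. The last 75 bases of the germline transcripts (GENCODE M21, GRCm38) are shown for the V genes that led a library, since the results below turn on them. Capitals mark the first match to TANTNNTGN, the conserved tyrosine, tyrosine or phenylalanine, and cysteine codons with some degeneracy. On the coding strand this motif was in the last 75 bases of 99 of 103 members and of 7.68% of all 141767 transcripts of the annotation, and on the other strand in 27 members and 8.13% of all transcripts.
Igkv5-39: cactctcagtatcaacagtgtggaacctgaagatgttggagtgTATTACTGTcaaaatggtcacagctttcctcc
Igkv9-120: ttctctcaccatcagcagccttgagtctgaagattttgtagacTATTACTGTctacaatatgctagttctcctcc
Igkv17-127: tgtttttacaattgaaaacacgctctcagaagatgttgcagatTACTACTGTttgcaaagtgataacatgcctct
Igkv1-110: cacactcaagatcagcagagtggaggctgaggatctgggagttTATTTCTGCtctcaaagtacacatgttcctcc
Igkv1-117: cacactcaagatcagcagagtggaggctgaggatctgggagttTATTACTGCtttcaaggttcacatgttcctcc
Igkv6-15: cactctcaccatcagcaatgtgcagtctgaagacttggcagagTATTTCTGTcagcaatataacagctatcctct
Igkv16-104: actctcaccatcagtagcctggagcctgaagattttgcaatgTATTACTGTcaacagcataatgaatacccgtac
Iglv1: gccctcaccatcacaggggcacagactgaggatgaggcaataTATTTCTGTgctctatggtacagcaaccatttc

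Many members are close copies of each other, which bears on how reads were divided between them. The closest other member of a V gene had a median identity of 94.5% over the aligned transcript, and 48 of 103 members had another at 95% or more. Igkv1-110 and Igkv1-117 were 97.5% identical, and Igkv17-127 and Igkv17-121 were 97.5% identical. Igkv5-39 stood further apart, with its closest member Igkv5-45 at 90.5%, and Igkv16-104 was the most isolated of those shown, at 73.2% to its closest member. Shares of members of one such group are uncertain, since the authors' quantification could split reads among them and somatic mutation adds mismatches to the germline sequence. The lambda genes Iglv1 and Iglv2 were 96.7% identical, with 12 of 366 aligned bases different, of which 4 lay in the last 120 bases, shown here with the different bases in capitals.
Iglv1: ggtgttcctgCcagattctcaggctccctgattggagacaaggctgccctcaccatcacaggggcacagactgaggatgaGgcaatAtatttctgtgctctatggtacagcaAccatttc
Iglv2: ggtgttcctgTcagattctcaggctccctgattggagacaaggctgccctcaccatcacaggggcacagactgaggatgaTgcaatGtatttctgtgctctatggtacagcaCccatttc

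The kappa members lie in 20 families on chromosome 6 between positions 67555497 and 70704177 (GRCm38), from 22.3 to 3170 kb before Igkc (chr6:70726435-70726966, plus strand). Of these, 38 are read in the same orientation as Igkc and 62 in the opposite one, so that joining inverts the locus for the latter. The lambda members lie on chromosome 16 between positions 19085017 and 19260859. Values are TPM, transcript levels scaled for length and to an equal total per library, as the authors deposited them. They hold no sequencing depth, so that no counting error can be given. The number of genes listed above 0, which falls with depth and RNA input, was 15460 to 19537 in Myc WT LZ, 13169 to 16421 in Myc V394D LZ and 12983, 11527 and 16040 in MBCs 1, 3 and 4. Ribosomal RNA took 35.7 to 44.5%, 44.1 to 61.3% and 36.1 to 37.5% of TPM in the same order. The summed TPM of 6 GC B cell genes were 1208 to 1451 and 1021 to 1494 in the LZ groups and 316 to 423 in MBCs. The sum of 6 MBC genes was 32.8 to 37.3, 15.9 to 32.9 and 387 to 547. Of these 6, Cd38, Pdcd1lg2 (which encodes CD273), Ccr6 and Cd80 were higher in every MBC library than in every LZ library. Cd38 and CD273 are also the sort's own markers. Nt5e (6.80 to 11.5 TPM in MBCs, 10.8 to 13.4 TPM in Myc WT LZ) and Zbtb32 (0.500, 0 and 6.56 TPM, against 0.700 to 2.10 TPM) overlapped. The sum of 5 genes of naive follicular B cells was 1001 to 1101 TPM in MBCs against 367 to 370 TPM in Myc WT LZ, and that of 5 myeloid genes 36.4 to 178 TPM against 7.69 to 15.7 TPM. The part of either in the MBC values below was not tested. Of 6 plasma cell genes, Tnfrsf17 was listed at 0 throughout, and the sum was 229 to 381 in Myc WT LZ, 134 to 221 in Myc V394D LZ and 193 to 402 in MBCs.

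Myc WT LZ B cells held a broad light chain repertoire that was alike in the 4 mice. Between 87 and 96 of the 103 members were listed above 0 in each library, and 26 to 29 had more than 1% of summed light chain V TPM. The effective number of V genes, the exponential of the Shannon entropy of the shares and thus the number of equally used genes that would be as diverse, was 41.5, 48.5, 48.0 and 46.4 in mice 1 to 4. Mouse 1 was the lowest of them. A single V gene took at most 11.3% in mouse 1 and 6.68 to 7.26% in the other 3 mice, and the 5 leading genes together took 30.0 to 36.0%. The Bray-Curtis distance between shares (0 for identical and 1 for disjoint repertoires) was 0.121 to 0.203 over the 6 pairs of Myc WT LZ libraries.

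The leading V genes of Myc WT LZ B cells were Igkc-distal members of the Igkv1 family. Igkv1-110 (chr6:68270485-68271267) led mice 1, 3 and 4 with 11.3, 6.68 and 6.81% and had 5.64% in mouse 2. Igkv1-117 (chr6:68121046-68121827) led mouse 2 with 7.26% and had 5.95 to 6.67% in the others. Igkv1-135 (chr6:67609713-67610508) had 5.69 to 7.09%. Together the 10 members of the Igkv1 family took 19.9 to 25.5% and the 9 of the Igkv6 family 10.8 to 14.2%, more than the 8.04 to 11.6% of the Igkv4 family with its 26 members. Igkv16-104, the single member of its family, had 4.10 to 6.15%, Igkv17-127 (chr6:67861153-67861659) 3.76 to 6.74%, and Igkv6-15 (chr6:70406469-70406992), the most used of the Igkc-proximal members here, 3.59 to 6.05%. Further named members had 1.97 to 3.06% (Igkv10-96), 1.32 to 3.72% (Igkv14-111), 2.42 to 4.26% (Igkv17-121) and 1.5 to 1.99% (Igkv12-44). When the kappa members were divided into the 50 nearer to and the 50 farther from Igkc, the farther 50 held 58.4 to 63.6% of Igkv TPM.

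**Figure D1:**
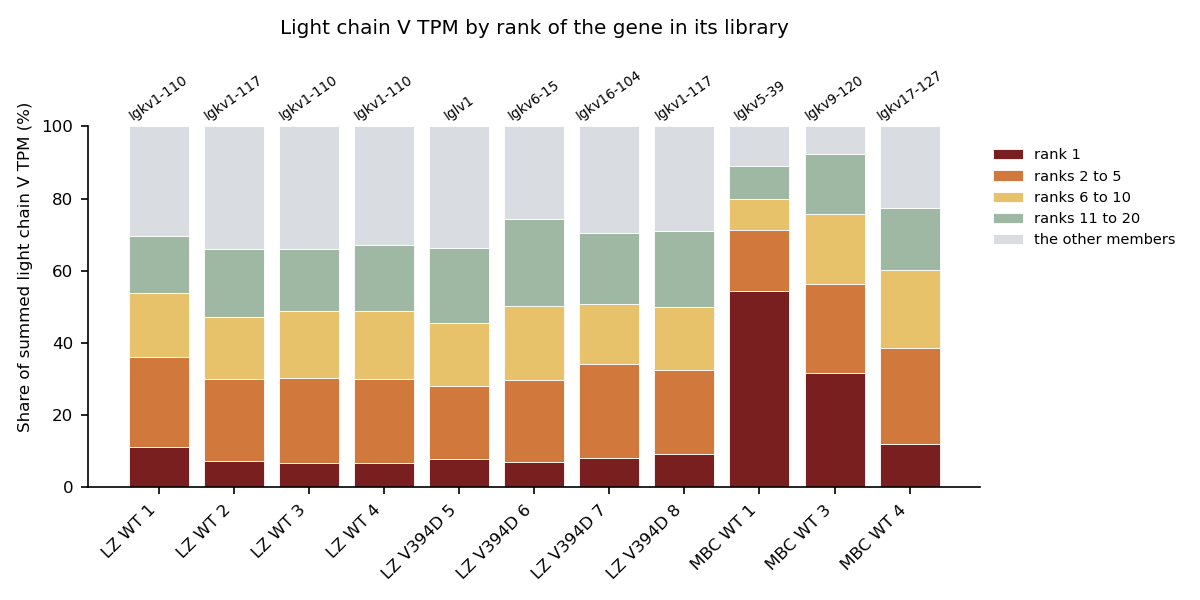
Share of summed light chain V TPM (%) taken by the gene ranked 1, by ranks 2 to 5, 6 to 10 and 11 to 20 and by the other members in each of the 11 libraries, with the name of the leading gene above each bar. The leading gene takes 6.68 to 11.3% in the 8 LZ libraries and 54.5, 31.8 and 12.0% in MBCs 1, 3 and 4.

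The comparison of Myc V394D with Myc WT LZ B cells asked whether loss of the MYC-MIZ1 complex went with another light chain repertoire in the LZ. No single V gene passed the adjusted test, and 13 members, from the leading gene Igkv1-110 to rare ones, had lower TPM without overlap between the groups (14% of the members tested, beside 9.16% of all genes). A different gene led each Myc V394D mouse: Iglv1 with 8.02% in mouse 5, Igkv6-15 with 7.05% in mouse 6, Igkv16-104 with 8.04% in mouse 7 and Igkv1-117 with 9.17% in mouse 8. All of these were also used in Myc WT LZ B cells, at 4.65 to 5.62%, 3.59 to 6.05%, 4.10 to 6.15% and 5.95 to 7.26%. Igkv1-110, the leading gene of 3 Myc WT mice, had 5.04, 5.49, 3.88 and 8.09% in mice 5 to 8. Its level was 403, 182, 258 and 188 TPM in Myc WT mice and 158, 142, 88.7 and 115 TPM in Myc V394D mice, without overlap (log2 difference -0.98 ± 0.28, SE, limma adjusted p = 0.141). Summed with Igkv1-117, its closest copy, it had 352 to 640 TPM against 246 to 291 TPM, also without overlap. The share of the leading gene was 8.07 ± 0.868% (SD, n = 4) against 8.02 ± 2.22% (SD, n = 4) in Myc WT.

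The effective number of V genes was 47.1, 38.9, 39.5 and 41.7 in Myc V394D mice 5 to 8. The groups overlapped. The difference was -4.33 (41.8 ± 3.75 against 46.1 ± 3.22, SD, n = 4 each), with p = 0.143 by the two-sided exact permutation test over 70 groupings. Only 71 to 85 members were listed above 0, against 87 to 96 in Myc WT, in libraries that also listed fewer genes of all kinds. When only the 35 members listed above 0 in all 11 libraries were counted, a choice made after seeing the data, the effective number was 23.2 to 23.5 in Myc V394D and 22.2 to 25.3 in Myc WT. Myc V394D mice were less alike among themselves, with Bray-Curtis distances of 0.289 to 0.361 over 6 pairs, and 0.209 to 0.320 from Myc WT mice.

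Summed light chain V TPM were 3130, 2586, 2286 and 1425 in mice 5 to 8 and 3559, 3235, 3861 and 2762 in Myc WT mice 1 to 4. The groups overlapped by mouse 5 alone. On the log2 scale the difference was -0.55 (exact permutation p = 0.0571, 0.114 after Benjamini-Hochberg adjustment over the 12 tests of 6 repertoire measures in 2 comparisons), and it was -0.71 without Myc V394D mouse 5 (exact permutation p = 0.0286) and -0.33 without mouse 8 (exact permutation p = 0.114). Rescaling moved it to -0.21 (exact permutation p = 0.286) with the median ratio and to -0.24 (exact permutation p = 0.143) after removal of ribosomal RNA, of which these libraries held more. The sum of the 6 plasma cell genes was also lower there without overlap (134 to 221 against 229 to 381 TPM). This came mostly from Jchain (67.1 to 144 against 152 to 280 TPM), the only one of them lower without overlap. Xbp1 (43.0 to 66.7 against 54.8 to 73.6 TPM), Irf4 (14.1 to 32.4 against 19.7 to 27.1 TPM) and Prdm1 (0.26 to 4.08 against 2.76 to 3.87 TPM) overlapped. Sdc1 had 6.05 TPM in mouse 7 and was listed at 0 in mice 5, 6 and 8, against 0 to 0.12 TPM. The part of plasma cells in the lower sum of V TPM was not tested.

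Gene by gene, limma's test on log2(TPM + 1) was run on the 12869 genes that averaged 1 TPM or more, 93 of them members. After Benjamini-Hochberg adjustment 0 members were higher and 0 lower, with 0.00777% and 0.0389% of all genes called. At an unadjusted p under 0.05, 2 members were higher and 30 lower (2.15% and 32.3%), beside 1.24% and 15.7% of all genes. The median difference was -0.69 for members and -0.31 for all genes, and with the median ratio it was -0.43 for members and -0.01 for all genes. In 13 members every Myc V394D value lay below every Myc WT value (beside 9.16% of all genes), and in 0 every value lay above (beside 0.816%). As shares of summed light chain V TPM, 2 members were higher and 7 lower without overlap (2.15% and 7.53% of those tested), beside 7.03% and 1.34% of all genes divided by the same sum.

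Among the members whose TPM were lower without overlap, the 3 largest differences were all in little used members. Igkv9-124, a more used member whose groups overlapped, had a larger difference than Igkv14-126, at -2.50 (limma adjusted p = 0.178). Igkv1-99 (chr6:68541644-68542422) had 19.7, 4.93, 5.83 and 20.3 TPM in Myc WT mice and 1.70, 0, 0 and 0 TPM in Myc V394D mice, a difference of -3.17 ± 0.55 (SE) on the log2(TPM + 1) scale (limma adjusted p = 0.0659). Igkv4-61 (chr6:69416893-69417455) had 12.5, 22.6, 16.7 and 6.70 TPM against 1.64, 0, 4.37 and 0 TPM, a difference of -2.90 ± 0.58 (limma adjusted p = 0.0838). Summed with Igkv4-54 and Igkv4-68, its copies at 95% identity or more, it had 12.8 to 36.7 TPM in Myc WT and 21.9, 0.960, 43.2 and 2.29 TPM in Myc V394D, which overlap. Igkv1-99 and Igkv14-126 had no such copy. Igkv14-126 (chr6:67896172-67896642) had 6.75, 4.27, 4.10 and 1.80 TPM and was listed at 0 in all 4 Myc V394D libraries, with a fitted difference of -2.30 ± 0.45 that depends on the pseudocount (limma adjusted p = 0.0802). All 3 passed the adjusted threshold when Myc V394D mouse 5 was left out, as did 11 members in all, each lower (limma adjusted p = 0.0308, 0.0443 and 0.0443 for the 3), in a fit that called 1.88% of all genes lower and 0.0934% higher. Mouse 5 had the least ribosomal RNA (44.1%) and the highest GC gene sum (1494 TPM) of the Myc V394D libraries, and the part of either in this was not tested.

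The balance along the kappa locus had lower distal values in Myc V394D. The Igkc-distal 50 members held 52.6, 56.9, 57.5 and 57.4% of Igkv TPM in mice 5 to 8, all below the Myc WT values of 63.6, 59.1, 62.9 and 58.4%. The difference of -4.93 percentage points (56.1 ± 2.37 against 61.0 ± 2.64, SD, n = 4 each) had an exact permutation p of 0.0286, the smallest that 70 groupings allow, and 0.0686 after adjustment over 12 tests. The exact permutation p was 0.114 when the farthest 34 members were taken (-4.26 points), 0.0857 without mouse 5 (-3.76 points) and 0.0571 without mouse 6, 7 or 8. It was 0.371 with the leading gene of each library left out (-2.23 points), a choice made after seeing the data.

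**Figure D2:**
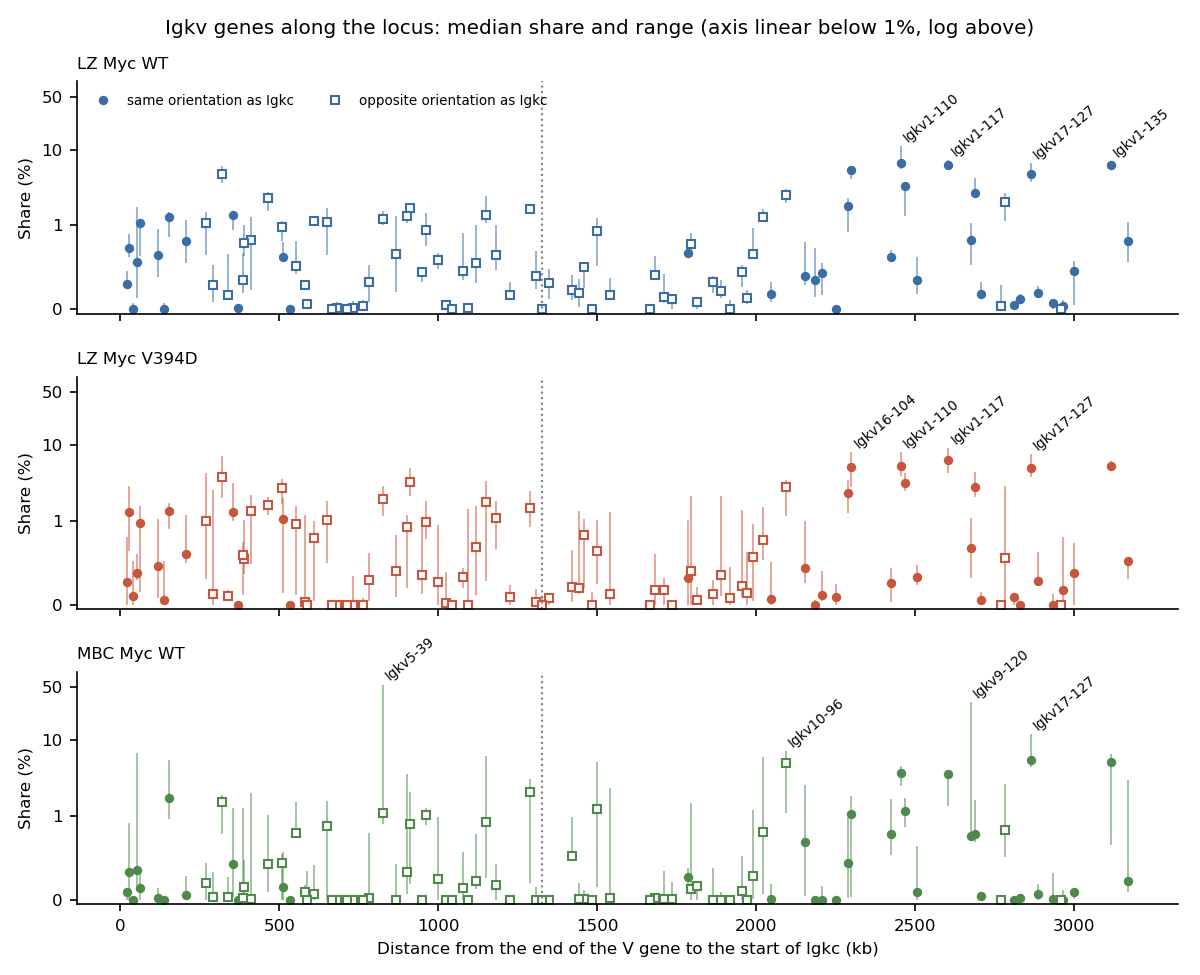
Share of summed light chain V TPM (%, linear below 1% and logarithmic above) of the 100 kappa members against the distance (kb) of their end from the start of Igkc, by group; points are medians over mice, vertical lines the range, filled circles the orientation of Igkc and open squares the opposite one, and the dotted line divides the nearer from the farther 50. In Myc WT LZ B cells the highest medians lie between Igkv10-96 at 2094 kb and Igkv1-135 at 3116 kb and at Igkv6-15, in Myc V394D LZ B cells Igkv12-44 at 911 kb also has a median of 3.28%, and in MBCs the ranges of Igkv5-39 and Igkv9-120 reach 54.5 and 31.8%.

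The comparison of Myc WT MBCs with Myc WT LZ B cells asked how the repertoire differed between the memory and the GC pool. MBCs held more light chain V RNA, less evenly spread over genes, and each library was led by a gene of its own. Summed light chain V TPM were 7474, 7573 and 9112 in MBCs 1, 3 and 4, all above the LZ values, a log2 difference of 1.27 (12.97 ± 0.160, SD, n = 3, against 11.7 ± 0.208, SD, n = 4; exact permutation p = 0.0286, the smallest of 35 groupings; 0.0686 after adjustment over 12 tests). As a share of all TPM this was 0.747 to 0.911% in MBCs and 0.276 to 0.386% in Myc WT LZ B cells. Sums of plasma cell genes overlapped between these groups. In MBCs 1, 3 and 4 Prdm1 had 18.2, 0 and 6.32 TPM (2.76 to 3.87 in Myc WT LZ). Irf4 had 54.45, 17.8 and 59.8 TPM (19.7 to 27.1), and Sdc1 had 0, 0 and 5.40 TPM (0 to 0.12). Xbp1 had 106, 83.1 and 60.4 TPM (54.8 to 73.6), and Jchain had 129, 92.2 and 270 TPM (152 to 280). The part of plasma cells in the higher sum of V TPM was not tested.

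Igkv5-39 (chr6:69900424-69900977, minus strand) took 54.5% of light chain V TPM in MBCs of mouse 1, at 4073 TPM. It had 1.31% in LZ B cells of the same mouse, 1.01 to 1.57% in the other Myc WT LZ libraries, 1.16 to 2.84% in Myc V394D and 0.907 and 1.10% in MBCs 3 and 4. Its high value was thus in 1 library of 11.
Igkv9-120 (chr6:68049983-68050456, plus strand) took 31.8% in MBCs of mouse 3, at 2411 TPM, and 1.08% in LZ B cells of that mouse. Elsewhere it had 0.320 to 1.08% in LZ libraries and 0.758 and 0.718% in MBCs 1 and 4.
Igkv17-127, a widely used gene, led MBCs of mouse 4 with 12.0%, against 4.30% in LZ B cells of that mouse and 5.55 and 4.46% in MBCs 1 and 3. The second gene had 5.55% (Igkv17-127) in MBCs 1, 7.90% (Iglv1) in MBCs 3 and 7.27% (Igkv10-96) in MBCs 4, so that the leading gene exceeded it 9.82-fold, 4.03-fold and 1.65-fold.
By limma, the differences of Igkv5-39 (2.85 ± 1.20, SE) and Igkv9-120 (2.94 ± 1.16) were not past the adjusted threshold (limma adjusted p = 0.167 and 0.142), and each was led by 1 of 3 libraries.

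**Figure D3:**
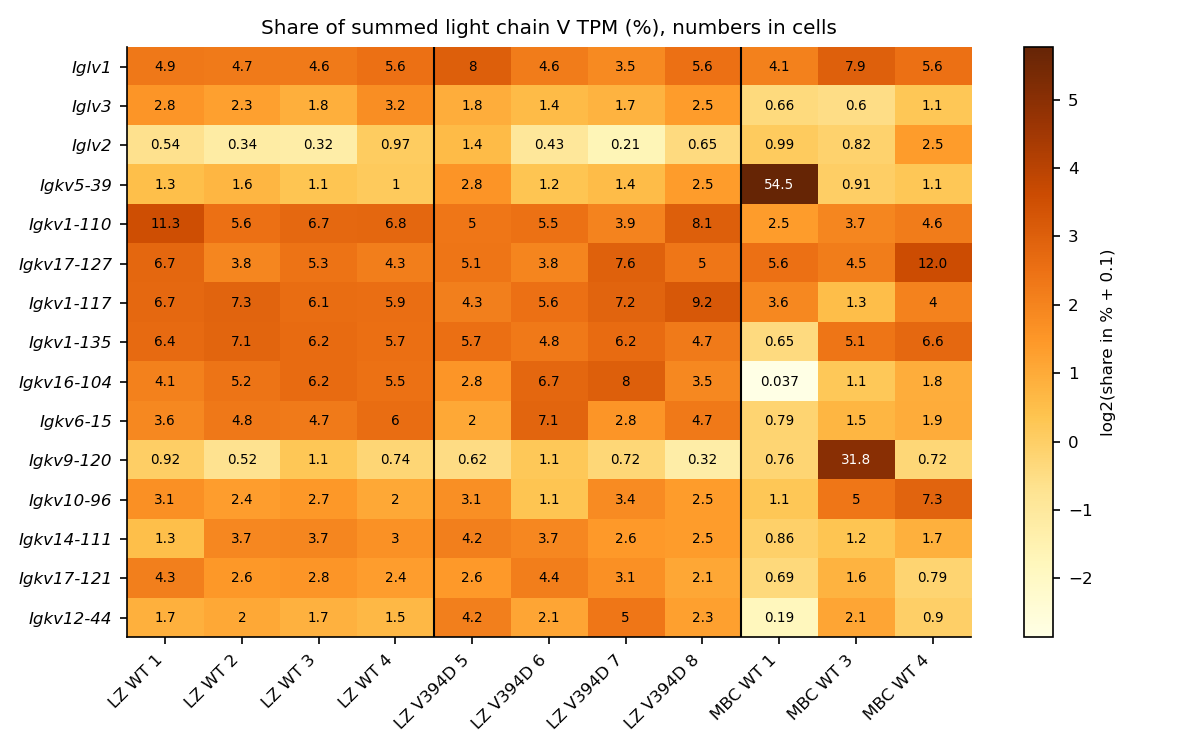
Share of summed light chain V TPM (%, numbers in cells; colour on a log2 scale) of the 3 lambda genes, the 12 kappa genes with the highest mean share and the leading gene of each library, in the 11 libraries; black lines divide the 3 groups. Igkv5-39 and Igkv9-120 stand out in MBCs 1 and 3 alone, at 54.5 and 31.8%.

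The effective number of V genes was 9.49, 15.6 and 33.6 in MBCs 1, 3 and 4, each below the lowest LZ library (38.9, a Myc V394D mouse). Against Myc WT LZ B cells the difference was -26.5 (19.6 ± 12.5, SD, n = 3, against 46.1 ± 3.22, SD, n = 4; exact permutation p = 0.0286, 0.0686 after adjustment over 12 tests). Without the leading gene of each library the values were 30.9, 22.6 and 35.7 against 44.8 to 49.7, still without overlap (exact permutation p = 0.0286). MBCs 1, 3 and 4 listed 64, 47 and 90 members above 0, in the order of their genes above 0 in all. Over the 35 members listed above 0 in every library the values were 6.68, 14.5 and 21.5 against 22.2 to 25.3. The 5 leading genes took 71.3, 56.5 and 38.6%.
The share of the leading gene was 54.5, 31.8 and 12.0% against at most 11.3% in LZ B cells, a difference of 24.8 points (exact permutation p = 0.0286, 0.0686 after adjustment), and 13.9 points without MBCs 1. With the mouse as a block, 3 pairs cannot give a p under 0.25, which was the p for summed V TPM (1.25), the effective number (-25.7) and the leading share (24.5 points), all 3 pairs with the same sign. Among mice 1 to 3, which share a title prefix, the MBC and LZ values of these measures did not overlap either.

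Each MBC library lay farther from the other MBC libraries than from any Myc WT LZ library. The Bray-Curtis distance was 0.568 to 0.720 between MBC libraries. From MBCs 1 it was 0.611 to the LZ library of that mouse and 0.603 to 0.620 to the other Myc WT LZ libraries. For mouse 3 these values were 0.543 and 0.548 to 0.554, and for mouse 4 they were 0.378 and 0.376 to 0.390. The distances to the LZ library of the same mouse thus lay within or close to the range of the others. The Igkc-distal share was 25.0, 74.5 and 67.2% in MBCs 1, 3 and 4. It followed the leading gene, with Igkv5-39 in the nearer and Igkv9-120 in the farther part of the locus. Its mean differed from that of Myc WT LZ B cells by -5.47 points (exact permutation p = 0.886).

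**Figure D4:**
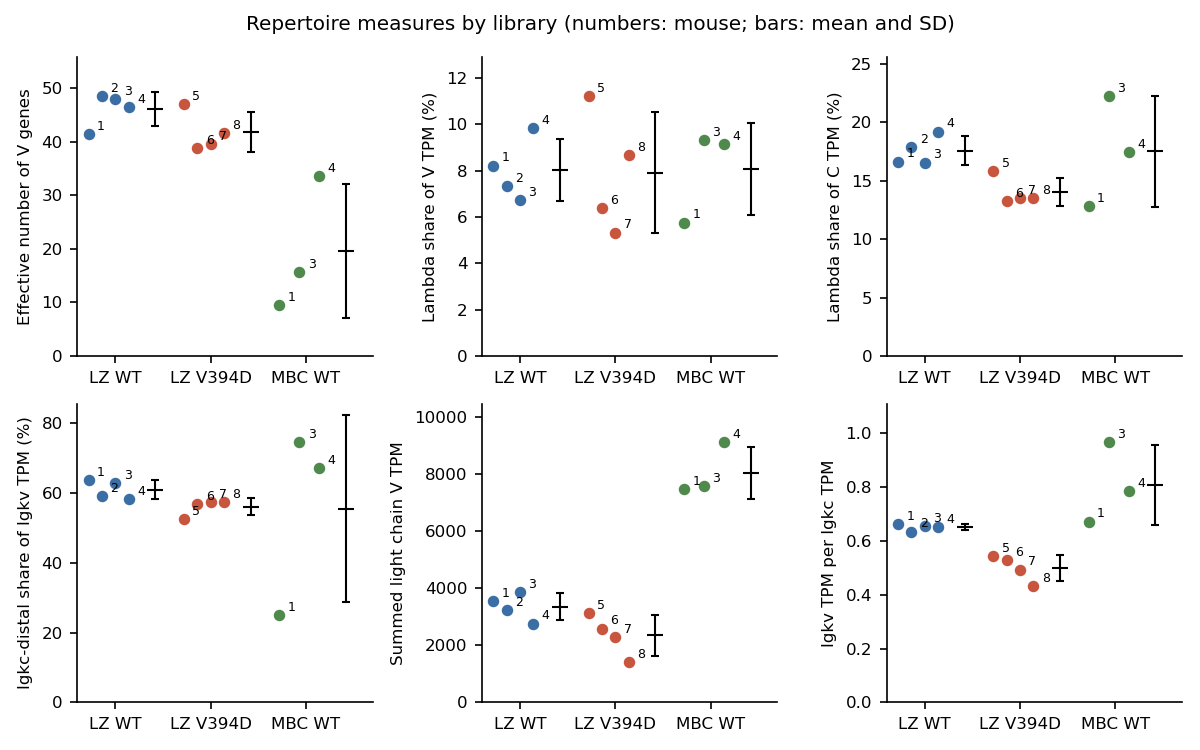
Repertoire measures by library in the 3 groups, with the mouse number beside each point and the mean and SD (n = 4, 4 and 3) to the right: effective number of V genes, lambda share of V and of C TPM (%), Igkc-distal share of Igkv TPM (%), summed light chain V TPM and Igkv TPM per Igkc TPM. MBCs lie below all LZ libraries in effective number (9.49 to 33.6) and above them in summed V TPM (7474 to 9112).

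Of 88 members tested by limma in MBCs against LZ B cells, 8 were higher and 4 lower after Benjamini-Hochberg adjustment (9.09% and 4.55%), beside 4.17% and 5.04% of all 13245 genes. Without overlap between groups 10 were higher and 6 lower (11.4% and 6.82%), beside 11.8% and 14.4% of all genes. The median difference was -0.72 for members and -0.14 for all genes, and 58 of the 88 members had negative differences while the sum was higher. The members' median rested on MBCs 3, which listed the fewest genes: without it the median was -0.06, with 43 positive and 45 negative differences, and it was -0.38 without MBCs 1 and -1.18 without MBCs 4. Scaled to equal summed light chain V TPM, 0 were higher and 15 lower (beside 4.11% and 5.13% of all genes), and with the mouse as a block 3 were higher and 0 lower (beside 0.989% and 0.897%).

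The higher members were spread over families and both loci. Igkv4-68 (chr6:69304834-69305405) rose from 3.89, 13.1, 9.28 and 6.10 TPM in LZ B cells to 38.8, 75.01 and 45.2 TPM in MBCs, with a log2 difference of 2.62 ± 0.46 (SE, limma adjusted p = 0.0123). Summed with its 7 copies at 95% identity or more it had 95.5 to 170 TPM in LZ B cells and 161, 347 and 791 TPM in MBCs 1, 3 and 4, which overlap. Igkv4-68 was the only member whose share, too, lay above all Myc WT LZ values in every MBC library (0.646% in Myc V394D mouse 5 was within the MBC range; 0.496 to 0.991% against 0.109 to 0.405%). Igkv8-27 (chr6:70171809-70172270) rose from between 13.1 and 26.4 TPM to 58.8, 116 and 72.9 TPM (2.04 ± 0.37, limma adjusted p = 0.0134). Igkv3-10 (chr6:70572633-70573230) had 33.1 to 54.4 TPM and then 128, 410 and 88.2 TPM (2.02 ± 0.49, limma adjusted p = 0.0358), and its call was lost under 10 of 16 alternatives. It is 98.3% identical to Igkv3-5, and the summed TPM of both were 71.0 to 76.9 in Myc WT LZ B cells and 139, 410 and 121.9 in MBCs 1, 3 and 4, without overlap. Igkv2-109 (chr6:68302427-68303158) had 17.3 to 22.7 TPM and then 126, 40.01 and 72.0 TPM (1.72 ± 0.40, limma adjusted p = 0.0315; lost under 10 of 16 alternatives). Igkv17-127 had 119 to 240 TPM and then 415, 338 and 1093 TPM (1.71 ± 0.43, limma adjusted p = 0.0431; lost under 11 of 16 alternatives). Summed with Igkv17-121, its closest copy, it had 186 to 392 TPM in Myc WT LZ B cells and 466, 461 and 1165 TPM in MBCs 1, 3 and 4, without overlap. Igkv12-46, Iglv1 and Iglv2 were the other higher members.

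The 4 lower members were all little used. Igkv5-45 (chr6:69775750-69776344) fell from 16.4, 10.8, 17.5 and 11.8 TPM to 0, 0 and 0.670 TPM (-3.65 ± 0.48, SE, limma adjusted p = 0.00421; 0.0636 with the mouse as a block). It is 98.4% identical to Igkv5-43, and the summed TPM of both were 46.0 to 81.1 in LZ B cells and 264, 5.08 and 30.5 in MBCs 1, 3 and 4, which overlap. Igkv1-99 fell from between 4.93 and 20.3 TPM to 0, 0 and 0.620 TPM (-3.30 ± 0.64, limma adjusted p = 0.0173; 0.0738 with the block). Igkv4-63 (chr6:69377944-69378472) and Igkv4-58 (chr6:69500254-69500786) had 4.18 to 18.5 and 3.40 to 11.5 TPM in LZ B cells, and both were listed at 0 in MBCs 1 and 3, at 3.24 and 1.26 TPM in MBCs 4 (limma adjusted p = 0.0491 and 0.0325; 0.142 and 0.213 with the block). MBCs 1 and 3 were the libraries with the fewest genes above 0.

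Several of the genes most used in LZ B cells had lower shares in MBCs. In 31 of 103 members every MBC share lay below every Myc WT LZ share and in 1 above. Of the 88 members tested by limma this was 35.2% and 1.14%, beside 48% and 2.13% of all genes divided by the same sum, so lower values on this scale were not more frequent among members than among all genes. Of the 31, 21 were listed at 0 in an MBC library. Among the 31 were Igkv1-110 (2.48 to 4.57% against 5.64 to 11.3%), Igkv1-117 (1.34 to 4.02% against 5.95 to 7.26%), Igkv16-104 (0.0372 to 1.81% against 4.10 to 6.15%), Igkv6-15 (0.787 to 1.86% against 3.59 to 6.05%) and Igkv17-121 (0.686 to 1.63% against 2.42 to 4.26%). By family, a count with no counterpart over all genes, 4 of 23 had lower shares without overlap and 0 had higher shares. The 4 were Igkv1 (6.88 to 15.8% against 19.9 to 25.5%), Igkv6, Igkv16 and Iglv3. These shares are bound to sum to the whole, so a dominant gene lowers the others in its library. Igkv1-135 and Igkv10-96 overlapped with LZ B cells, at 0.649, 5.12 and 6.59% and 1.09, 4.97 and 7.27% in MBCs 1, 3 and 4. Igkv17-127 and Iglv1, also among the most used in LZ B cells, overlapped too, with higher mean shares in MBCs (7.34 against 5.03% and 5.86 against 4.96%).

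**Figure D5:**
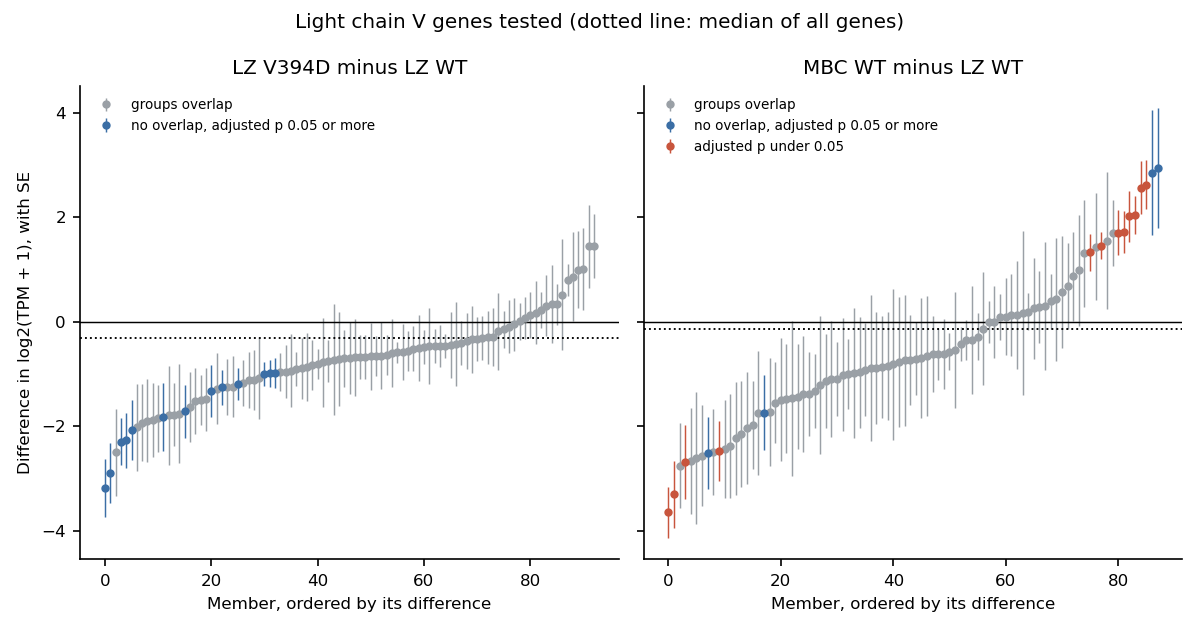
Difference in log2(TPM + 1) with its SE from limma for each member tested, ordered by its value, in Myc V394D LZ (93 members) and in Myc WT MBCs (88 members) minus Myc WT LZ; red points passed the adjusted threshold, blue ones had no overlap between groups without passing it, and the dotted line is the median of all genes. In Myc V394D 0 members are red and 13 blue, all below 0 (beside 9.16% of all genes without overlap below), and in MBCs 8 red points lie above and 4 below 0 (beside 4.17% and 5.04% of all genes).

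Kappa outweighed lambda in every library. The summed Igkv to Iglv TPM ratio was 9.18 to 13.9 in Myc WT LZ, 7.91 to 17.8 in Myc V394D LZ and 9.73 to 16.4 in MBCs. The lambda share of V TPM was 8.22, 7.32, 6.72 and 9.82% in Myc WT mice 1 to 4, 11.2, 6.39, 5.32 and 8.69% in Myc V394D mice 5 to 8, and 5.76, 9.32 and 9.13% in MBCs 1, 3 and 4. The 3 groups overlapped, with differences of -0.114 points (exact permutation p = 0.914) and 0.0465 points (exact permutation p = 0.971) from Myc WT LZ. With the leading gene of each library left out, which is kappa in all MBC libraries and Iglv1 in Myc V394D mouse 5, the differences were -2.30 points (exact permutation p = 0.171) and 3.505 points (12.2 ± 1.69, SD, n = 3, against 8.73 ± 1.48, SD, n = 4; exact permutation p = 0.0857).
Read by the constant genes, lambda shares were higher. They were 16.6, 17.9, 16.5 and 19.2% in Myc WT and 15.8, 13.2, 13.5 and 13.5% in Myc V394D, without overlap. The difference of -3.55 points (14.02 ± 1.21 against 17.6 ± 1.25, SD, n = 4 each) had an exact permutation p of 0.0286, the smallest possible, and 0.0686 after adjustment over 12 tests. The 3 mice 6 to 8 lay lowest. In MBCs the share by constant genes was 12.8, 22.2 and 17.5%, with a mean close to that of LZ B cells (-0.0682 points, exact permutation p = 1).

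Of the lambda V genes, Iglv1, which joins to the Iglc1 and Iglc3 clusters, was the most used, with 152 to 180 TPM in Myc WT LZ B cells, and Iglv2, which joins mainly to Iglc2, was the least used, with 11.04 to 26.7 TPM. Iglv1 rose to 307, 598 and 507 TPM in MBCs (1.46 ± 0.25, SE, limma adjusted p = 0.0119; 0.0638 with the mouse as a block). Iglv2 rose to 74.2, 61.9 and 225 TPM (2.56 ± 0.51, limma adjusted p = 0.0186), a call lost under 5 of 16 alternatives (adjusted p 0.0138 to 0.129). Since both are nearly identical, reads could have been moved between them. Their summed TPM were 163 to 193 in Myc WT LZ B cells and 381, 660 and 732 in MBCs 1, 3 and 4, without overlap. Iglv3 had 67.8 to 99.1 TPM in Myc WT LZ and 49.2, 45.2 and 99.9 TPM in MBCs (-0.42 ± 0.33, limma adjusted p = 0.447), and its share was lower there without overlap (0.597 to 1.10% against 1.76 to 3.23%). In Myc V394D LZ B cells Iglv3 had 56.2, 36.5, 37.7 and 34.9 TPM, below all Myc WT values (-0.99 ± 0.23, limma adjusted p = 0.108). Iglv1 had 251, 118, 79.1 and 79.6 TPM in mice 5 to 8, with mouse 5 highest, and Iglv2 had 44.0, 11.1, 4.84 and 9.28 TPM, which overlapped with Myc WT (limma adjusted p = 0.469 and 0.760).

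The constant genes gave the level of all light chain messages. Igkc, the kappa constant gene, had 3820 to 5513 TPM in Myc WT LZ, 3016 to 5108 TPM in Myc V394D LZ and 10497, 7120 and 10549 TPM in MBCs 1, 3 and 4. It was higher in MBCs (0.97 ± 0.20, SE, limma adjusted p = 0.0209; 0.119 with the mouse as a block), as was Iglc1 with 341 to 488 TPM against 777 to 1195 TPM (1.16 ± 0.22, limma adjusted p = 0.0149; 0.0828 with the block). Iglc2 (0.85 ± 0.33) and Iglc3 (0.50 ± 0.32) were not past the threshold in MBCs (limma adjusted p = 0.133 and 0.361). In Myc V394D 0 of 5 constant genes passed, with Iglc2 at -0.79 ± 0.23 and Iglc3 at -0.65 ± 0.22 (limma adjusted p = 0.145 and 0.191) and Igkc at -0.17 ± 0.22 (limma adjusted p = 0.736), the last with a positive sign after removal of ribosomal RNA (0.15) or with the median ratio (0.18).

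All 10 joining genes were listed at 0 in every library. These entries are very short (Igkj1 spans chr6:70722562-70722599). A light chain RNA is made with a joining gene, so these listings do not measure the use of joining genes. The surrogate light chain pairs with heavy chains before a light chain is made. Of the 4 genes listed for it, Igll1 and Vpreb2 were at 0 throughout and Vpreb1 reached at most 0.17 TPM. Only Vpreb3 was tested, and it fell in MBCs from between 110 and 174 TPM to 79.8, 33.2 and 28.1 TPM (-1.68 ± 0.39, SE, limma adjusted p = 0.032). The fall of Vpreb3 alone is no measure of the surrogate light chain. Of the partners that carry the receptor's signal, Cd79a rose in MBCs (0.83 ± 0.22, limma adjusted p = 0.0494) and Cd79b had a difference of 0.22 (limma adjusted p = 0.53). Of 12 genes of V(D)J recombination and end joining, 9 were tested, and in MBCs 0 rose and 2 fell, Hmgb2 (-2.52 ± 0.32, limma adjusted p = 0.00346) and Hmgb1 (-1.58 ± 0.30, limma adjusted p = 0.0153), which encode chromatin proteins with roles beyond recombination. Rag1 and Rag2, the recombinase, reached at most 1.38 and 0.25 TPM, and Dntt was listed at 0 throughout. In Myc V394D 0 genes of these lists passed the test.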

How the data were processed

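RNA of 11 libraries was sequenced. Per the labels, cells were depleted of CD43+ cells and sorted, and cDNA was made with a Nugen kit and sequenced on an Illumina HiSeq. The authors aligned reads with STAR 2.5.2a, quantified Ensembl genes (GRCm38) by RSEM 1.3.0 in its stranded mode, and the deposited values are TPM with 2 decimals. TPM divide estimated reads by length and scale each library to a fixed total; the read depth is not in these values, and precision comes from the spread between mice. A library in which ribosomal RNA takes more leaves less for other genes. 0 columns lacked a sample. Replicates are separate animals.

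Symbols, biotypes, coordinates and transcripts came from GENCODE M21, which held 48349 of the genes; 446 were absent from it. The longest transcript of each member was aligned to every other (Biopython 1.88, global, free end gaps, at least 250 aligned bases). Shares are percentages of a library's summed member TPM. Genes averaging 1 TPM or more across the libraries compared were tested with limma 3.58.1 in R 4.3.3 on log2(TPM + 1), each comparison being fitted to its own groups with a trend, two-sided and with Benjamini-Hochberg adjustment over all genes at 0.05. For the 6 measures per library, differences in means were tested by two-sided exact permutation over 70 or 35 groupings (Python 3.11.15, numpy 2.4.6, pandas 2.3.3), which cannot go below p = 0.0286; adjustment was over 12 tests. The fits were tested on simulated data. Members and lists were chosen with earlier results of these data known. By rule the text names all lambda members, the 12 kappa members with the highest mean share, the leading gene of each library, the constant genes, and in each comparison up to 5 called members a direction by size or, with fewer than 5, up to 3 without overlap; other names were chosen after their values were seen. MBC and LZ libraries of equal number carry the same mouse code in their titles and were taken as 1 animal each; over all genes, the r of their deviations from their group means was 0.00711, 0.0114 and -0.0463. Alternatives were another pseudocount (0.1), no filter, a filter at 5 TPM, scaling by the median ratio, without ribosomal RNA or to equal light chain V TPM, no trend, a single fit of all 3 groups, the mouse as replicate block, each library left out, pseudogenes included, values under 1 TPM set to 0, families, the inverse Simpson index, the farthest 34 members and the leading gene left out. Merging members of 95% identity, members above 0 in every library and the distal share without leading genes were added after seeing the data.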

Additional observations from a re-analysis of the deposited data

Results flagged for a closer look

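Within each LZ group of 4 mice, single values were compared with the other 3 for the 6 measures and for the shares of the named members, 61 sets of values in all. Of these, 4 had 1 mouse far from the others; chance alone flags about 1 in 20 sets.

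In Myc WT LZ B cells the share of the leading V gene was 11.3% in mouse 1 (Igkv1-110), with 6.68 to 7.26% in the other 3 mice. In Myc V394D LZ B cells mouse 5 was the mouse set apart in the other 3 sets. Its lambda share by constant genes was 15.8%, with 13.2 to 13.5% in mice 6 to 8. Its Igkc-distal share of Igkv TPM was 52.6%, with 56.9 to 57.5% in the others. Its share of Igkv1-99 was 0.0543%, and this gene was listed at 0 in the others; any value above 0 is set apart from 3 values of 0, so this says nothing of how far mouse 5 lay from them. Groups of 3 (MBCs) were not tested in this way.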

How the results depend on the processing

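Tests that leave out 1 library from MBCs against LZ B cells cannot reach p under 0.0667 (2 against 4) or 0.1 (3 against 3), so their lost calls say nothing about stability; the values over these fits were 1.18 to 1.34 for summed V TPM (log2), -33.5 to -21.5 for the effective number, 13.9 to 35.1 points for the leading share, -0.578 to 1.20 points for the lambda share of V TPM, -2.44 to 2.28 points for that of C TPM and -14.9 to 9.83 points for the Igkc-distal share, the last 3 with changes of sign (9.83 points without MBCs 1). The paired differences over the 3 mice, the replicate block, were 1.25, -25.7, 24.5, -0.187, 0.0408 and -6.10 in the same order. For Myc V394D against Myc WT LZ the ranges were -0.71 to -0.33 for summed V TPM, -4.16 to -3.01 points for the lambda share of C TPM (exact permutation p = 0.0571 with any 1 Myc WT mouse left out), -5.80 to -3.76 points for the distal share, -1.22 to 0.746 points for the lambda share of V TPM and -0.395 to 1.152 points for the leading share, which had either sign and also changed it to -3.15 points by families and -1.88 points with near-identical members merged. The distal share had p above 0.05 with the farthest 34 members (-4.26 points) and without the leading genes (-2.23 points; in MBCs 3.38 points, reversed).

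In MBCs the effective number by families differed by -4.19 (exact permutation p = 0.0571), and the leading share by 14.3 points by families, 19.98 with near-identical members merged and 24.96 over members above 0 in every library (p = 0.229, 0.0571 and 0.0571). Under limma, members higher in MBCs numbered 3 with no filter, 0 scaled to equal V TPM, 4 with no trend and 3 with the replicate block, and 2 to 8 with 1 library left out; members lower numbered 1 with no filter, 2 with a mean of at least 5 TPM, 15 scaled to equal V TPM, 0 with the block and 1 to 20 with 1 library left out (20 without MBCs 4). The share of all genes called moved too, from 4.17% higher and 5.04% lower to 1.37% and 1.16% with no filter, 6.25% and 6.53% with a mean of at least 5 TPM, 3.01% and 4.47% with no trend, 4.11% and 5.13% scaled to equal V TPM, 0.989% and 0.897% with the block and 7.06% and 14% without MBCs 4. In Myc V394D 0 members were lower except for 11 without mouse 5, beside 1.88% of all genes lower (0 to 11 with 1 library left out). Signs turned for Iglv1 (0.059) and Iglv2 (0.14) in Myc V394D when scaled to equal V TPM, for Iglv2 without Myc V394D mouse 7 (0.034, and -0.95 to 0.034 over all libraries left out in turn), for Igkc there with the median ratio (0.18) and without ribosomal RNA (0.15), and for Igkv1-110 in MBCs scaled to equal V TPM (-1.07) and without MBCs 4 (-0.10, and -0.10 to 0.49 over all libraries left out). The causes were not tested. TPM give no depth, so listings at 0 set no upper limit.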

Other observations

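The level of V sequence relative to constant sequence differed between groups; this was noticed in the values and is given as a description. Igkv TPM per Igkc TPM were 0.634 to 0.663 in the 4 Myc WT LZ libraries, 0.431 to 0.544 in the 4 Myc V394D LZ libraries and 0.671, 0.964 and 0.785 in MBCs 1, 3 and 4, with no overlap between any 2 groups (two-sided exact permutation p = 0.0286 for each comparison with Myc WT LZ, the smallest possible; chosen after seeing the values). Iglv TPM per Iglc TPM overlapped, at 0.230 to 0.299, 0.178 to 0.365 and 0.279 to 0.373. The share of ribosomal RNA was higher and the number of genes above 0 lower in Myc V394D than in Myc WT for most mice, and their part in this was not tested.

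Members high in MBCs of a mouse were in part higher, and in part not, in LZ B cells with the same mouse code. Igkv3-4, near Igkc, had 6.75% in MBCs 4 and 1.77% in LZ B cells of mouse 4, against 0.134 to 0.720% in the other Myc WT LZ libraries. Igkv10-94 had 5.999% in MBCs 4 and 1.65% in LZ B cells of mouse 4, against 1.10 to 1.38%. Igkv9-120 in mouse 3 followed the same order (31.8% in MBCs, 1.08% in LZ, against 0.525 to 0.925%), while Igkv5-39 in mouse 1 did not, with 1.31% in LZ B cells between 1.01 and 1.57% in the others. In mouse 4, Igkv17-127 (12.0% in MBCs) had 4.30% in LZ B cells against 3.76 to 6.74% in the others, Igkv10-96 (7.27%) had 1.97% against 2.44 to 3.06%, and Igkv4-74 (2.35%) had 0.160% against 0.130 to 0.369%. These members were picked for their values, and no test was made.

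By family, Igkv8 had 5.94 to 6.81% in Myc V394D LZ against 4.15 to 4.90% in Myc WT LZ, and Igkv2 had 0.965 to 1.17% against 1.59 to 2.22%; these were the 2 of 23 families without overlap, a count with no counterpart over all genes. Within Igkv8, Igkv8-24 had 2.89, 2.47, 1.64 and 3.57% in mice 5 to 8 against 0.815 to 1.151% in Myc WT. Igkv12-44 had 4.24, 2.10, 5.03 and 2.31% against 1.5 to 1.99%. These were the 2 members with higher shares without overlap (2.15% of those tested, beside 7.03% of all genes divided by the same sum).

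In MBCs 3, erythroid genes summed to 4298 TPM, against 4.74 and 21.8 TPM in MBCs 1 and 4, and T cell genes in MBCs 4 summed to 28.8 TPM, against 0 in the other MBC libraries. Neither list holds light chain genes, and their part in the MBC repertoires was not tested.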
